A study of Mus musculus with 19 samples.

Results

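The T-cell receptor complex, its CD8 coreceptor and the proteins that work directly with them were followed by 10 listed genes, Cd3d, Cd3e, Cd3g, Cd247, Cd8a, Cd8b1, Cd5, Cd6, Lck and Zap70. The genes were chosen by name, and each was represented by the probe set annotated to that symbol alone that was brightest on average over the 19 arrays. Of the 10 genes, 9 had such a probe set and each had exactly 1, among 19938 genes measured in all. Lck was not analysed here. Of 51 other genes of the T-cell receptor pathway, 43 were measured and are described after the members.

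RNA from purified mouse CD8 T lymphocytes had been hybridised to Affymetrix gene arrays, with 0.125 µg of RNA per array. The 3 arrays of the T-BetKO Stat5ca transferred group held cells with the genotype T-BetKO, transduced with Stat5ca, an active form of Stat5, and recovered from congenic hosts on day 14 (arrays 39 and 40) and day 54 (array 41). The other 16 arrays held TCRP1A transgenic Rag-1-/- cells on a B10.D2 background. Among these, Stat5ca transferred cells were transduced and recovered on day 20 (n = 4, arrays 11 to 14), and control transferred cells were recovered on day 18 and day 120 (n = 2, arrays 30 and 32). Stat5ca 72 h cells were transduced, GFP+ and taken after 72 h of activation (n = 2, arrays 9 and 10), control 72 h cells were taken after 72 h with their antigen (n = 4, arrays 1 to 4), and naive cells had not been activated (n = 4, arrays 33 to 36).

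All 6 groups were labelled as purified CD8 T lymphocytes. All TCRP1A groups share 1 transgenic receptor and the loss of Rag-1, so they hold T cells of a single specificity. The labels name no transduction for control cells, so active Stat5 cannot be told apart from transduction, nor from selection by GFP at 72 h. The day of recovery also differed, 18 and 120 for control transferred against 20 for Stat5ca transferred cells, and its part was not tested. The T-BetKO cells carry a C57BL/6 strain label beside the B10.D2 background, had antibodies to CD3 and CD28 as their stimulus, and were labelled for the array under another protocol. The series text calls them TCRP1A cells, while their labels name neither the TCRP1A transgene nor Rag-1-/-. They were recovered on days 14 and 54, with RNA integrity numbers of 6 to 8, against day 20 and 8 to 9 in Stat5ca transferred cells. In their comparison the loss of T-bet cannot be told apart from these differences. No label ties an array to its own animal or culture. The p-values therefore measure spread between arrays, which may be technical.

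The T-cell receptor itself has no signalling tail. It relays antigen binding through the CD3 chains, encoded by Cd3d, Cd3e and Cd3g, and through the zeta chain, encoded by Cd247, whose tails are phosphorylated by the kinase Lck and then bind the kinase ZAP-70. CD8, a dimer of the chains encoded by Cd8a and Cd8b1, holds the same class I molecule as the receptor and carries Lck, while the scavenger-receptor family proteins CD5 and CD6 sit beside the receptor and tune its signal.

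The data were log2 signals per probe set. Signals of different probe sets are not comparable as levels, so each gene was compared with itself across groups. A guide to background was the 95th percentile of 1194 olfactory and vomeronasal receptor genes, which was 7.30. The lowest value of any of the 9 genes on any array was 9.34, for Cd6 in control transferred cells, so every value lay above that guide. Tbx21, which encodes T-bet, had log2 signals of 8.18, 8.19 and 8.34 in T-BetKO Stat5ca transferred cells, against 11.77 to 11.97 in Stat5ca transferred cells. Stat5a averaged 12.06 in Stat5ca 72 h cells against 10.56 in control 72 h cells, and 11.68 in Stat5ca transferred cells against 10.25 in control transferred cells.

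**Figure D1:**
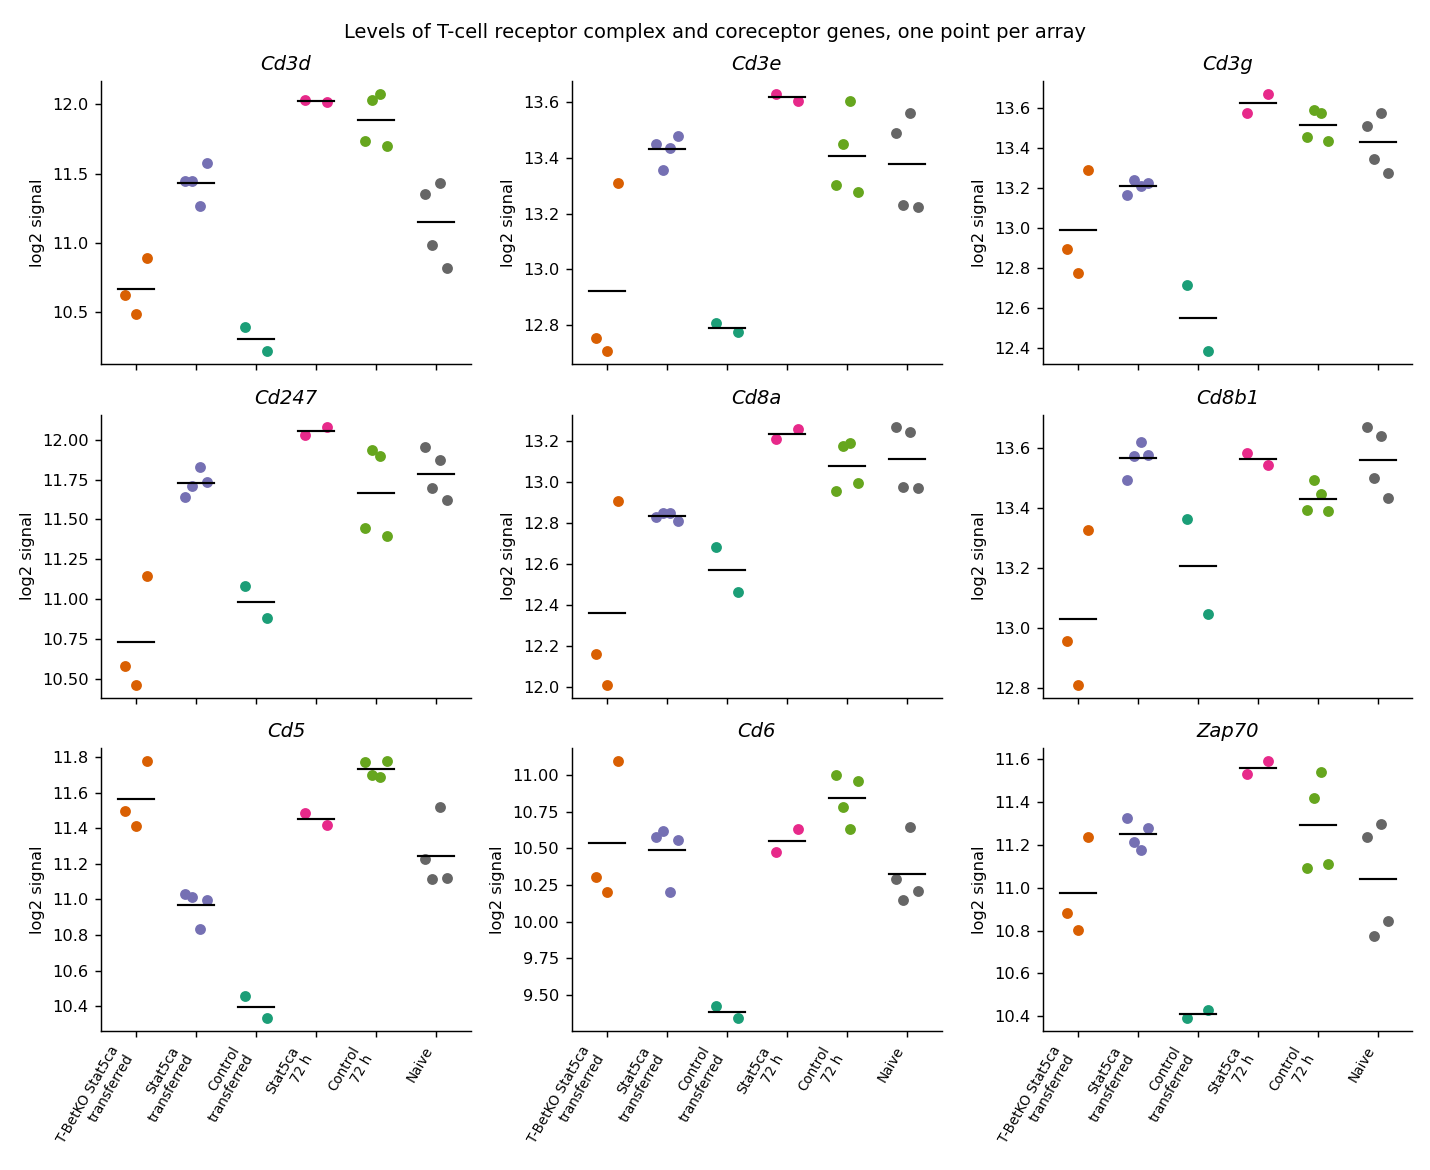
Log2 signal of the 9 measured genes on each of the 19 arrays, 1 panel per gene with its own axis, groups along the horizontal axis, points for arrays and lines for group means. Control transferred cells sit lowest for Cd3d, Cd3e, Cd3g, Cd5, Cd6 and Zap70, and T-BetKO Stat5ca transferred cells have the lowest mean for Cd247, Cd8a and Cd8b1.

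The widest movement of the complex was after transfer of control cells. In control transferred cells against naive cells, all 9 genes fell, by 0.36 to 0.94 on the log2 scale with a median of −0.81, while the median over all genes was −0.12. Of all genes, 17.7% were called in this comparison in either direction and 9.81% fell. A gene was called at an adjusted p under 0.05 from limma with Benjamini-Hochberg adjustment over all 19938 genes. Without array 32, 4 of the 9 were called. Leaving out an array of a group of 2 leaves a single array, here and below, and the fit then assumes that it varies like the other groups. Against control 72 h cells, 8 of the 9 fell and 1, Cd8b1, was not called, with a median of −0.88 against −0.04 over all genes. In that comparison 37.5% of all genes were called and 24.4% fell.

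After transfer, Stat5ca cells stood above control cells for most of the genes, while Cd8a and Cd5 were called lower than in naive cells. In Stat5ca transferred against control transferred cells, 8 of the 9 genes rose and 1, Cd8a, was not called, with a median change of 0.66 against 0.08 over all genes, where 25.4% of genes were called and 16.9% rose. The groups did not overlap for any of the 9 genes, as for 51% of all genes. At 72 h, 0 of the 9 genes was called between Stat5ca and control cells by limma, 2 had an unadjusted p under 0.05, and 5.72% of all genes were called. With limma's array weights 5 of the 9 were called at 72 h, 3 higher and 2 lower in Stat5ca 72 h cells. The share of all genes called with those weights was not counted, so this count has no share to be read against. The comparisons share groups of arrays, so each is given with its own values.

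Between control 72 h and naive cells 3 of the 9 genes were called, a smaller share than among all genes. In control 72 h against naive cells, Cd3d, Cd5 and Cd6 rose, 0 fell and 6 were not called, with 46.8% of all genes called, 22% as rises. After transfer, Stat5ca cells had lower Cd8a and Cd5 than naive cells and 7 genes were not called, with a median of 0.01, 28.6% of all genes called and 12.7% as falls. In Stat5ca transferred against Stat5ca 72 h cells, Cd3d, Cd3g, Cd8a and Cd5 fell and 5 were not called, with 21.3% of all genes called and 12.7% as falls. In T-BetKO Stat5ca transferred against Stat5ca transferred cells, Cd5 rose, Cd3d, Cd3e, Cd247, Cd8a and Cd8b1 fell and 3 were not called, with 20.8% of all genes called, 7.03% as rises and 13.8% as falls. Calls with a change of at least 2-fold were made for Cd3d, Cd5 and Cd6 in control transferred against control 72 h cells (11% of all genes) and for Cd3d and Cd6 in Stat5ca transferred against control transferred cells (4.75%). None of the 9 genes reached that size in control 72 h against naive (7.15% of all genes), Stat5ca 72 h against control 72 h (0.918%), control transferred against naive (3.72%), Stat5ca transferred against Stat5ca 72 h (4.98%), Stat5ca transferred against naive (3.24%) or T-BetKO Stat5ca transferred against Stat5ca transferred cells (2.64%).

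**Figure D2:**
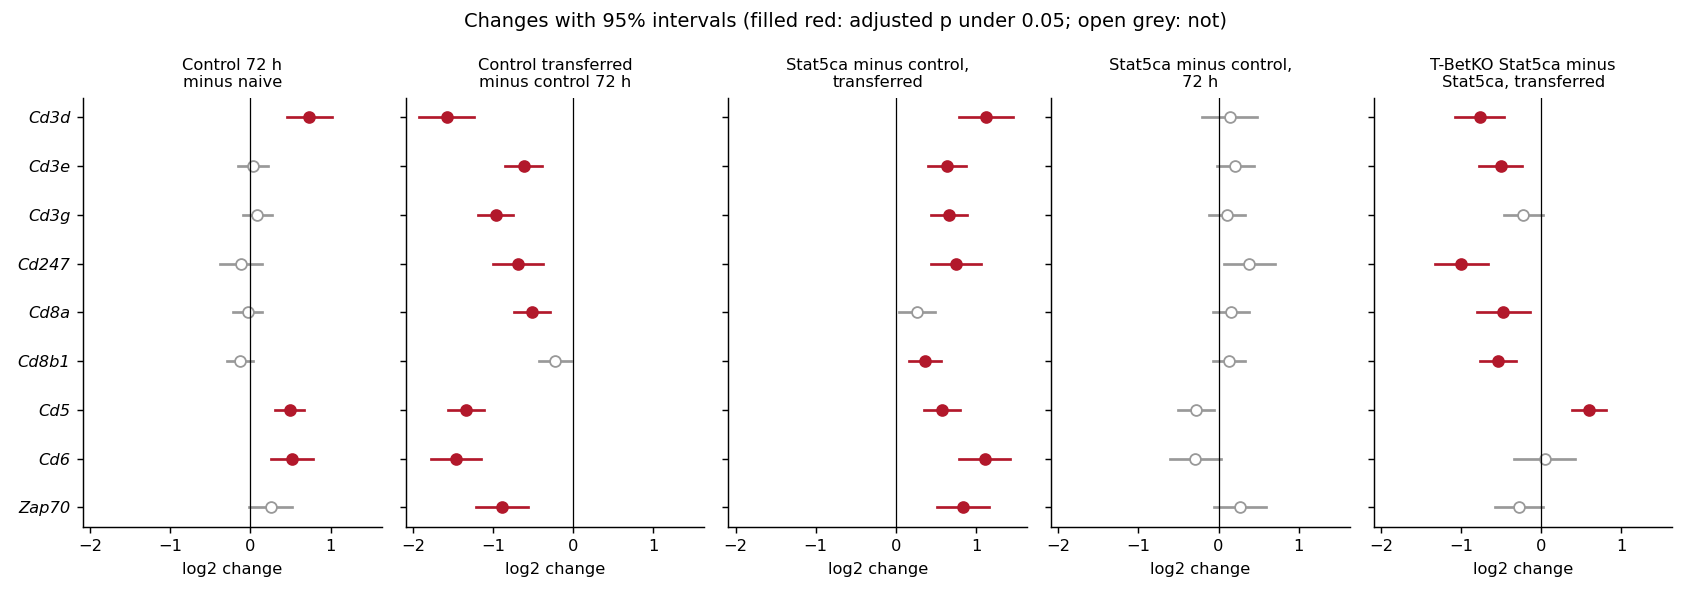
Log2 change of each of the 9 genes in 5 comparisons, with 95% intervals from limma. Filled red points passed an adjusted p of 0.05 and open grey points did not. Of the 9 genes, 8 lie right of 0 and passed for Stat5ca minus control after transfer, while 0 passed at 72 h.

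Macrophage and monocyte genes were present in these purified cells, at levels that differed between groups and arrays. All 18 genes of that list were measured. Their mean log2 signal was 12.27, 12.20 and 10.61 in T-BetKO Stat5ca transferred arrays 39, 40 and 41, 9.61 to 10.48 in Stat5ca transferred cells, and 12.26 and 12.14 in control transferred cells. It was 7.14 and 7.10 in Stat5ca 72 h cells, 8.07 to 8.73 in control 72 h cells, and 7.93, 11.63, 8.69 and 11.49 in naive arrays 33, 34, 35 and 36. In Stat5ca 72 h cells 11 of the 18 lay under background, among them Adgre1, Csf1r and Lyz2, and in control 72 h cells 5 did, among them Adgre1 and Mrc1. In the other groups 0 of the 18 did.

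Within the naive and T-BetKO groups, arrays with more macrophage signal had lower levels of all 9 members. Naive arrays 34 and 36, with the higher macrophage signal, lay below arrays 33 and 35 for 9 of 9 members, by 0.19 to 0.49, as did 28.8% of all genes. T-BetKO arrays 39 and 40 lay below array 41 for 9 of 9 members, by 0.32 to 0.84, as did 40.4% of all genes. In control 72 h cells, arrays 1 and 4 had macrophage means of 8.73 and 8.66, against 8.07 and 8.11 on arrays 2 and 3. Arrays 1 and 4 had the lower means of the centred members, 0.19 and 0.17 against 0.34 and 0.35, but higher Cd5 and Cd6. Stat5ca 72 h array 9 had the higher macrophage mean, 7.14 against 7.10, and the lower member mean, 0.34 against 0.37 on array 10. The Stat5ca transferred and control transferred groups ran the opposite way. Stat5ca transferred array 13 had the lowest macrophage mean of its group, 9.61, and also the lowest mean of the centred members, −0.0047 against 0.054 to 0.085 on arrays 11, 12 and 14. Control transferred array 32 had the lower macrophage mean and the lower member mean, −0.73 against −0.57 on array 30. In bulk RNA, fewer T cells in a sample and less RNA of a gene per cell cannot be told apart. With the macrophage mean as a covariate, 3 of the 9 genes instead of 9 fell in control transferred against naive cells (Cd3g, Cd5 and Cd6). Against control 72 h cells 4 instead of 8 fell (Cd3d, Cd3g, Cd5 and Cd6). In Stat5ca transferred against control transferred cells 7 instead of 8 rose. In Stat5ca transferred against Stat5ca 72 h cells 0 instead of 4 fell.

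Genes of other cell types were also above background in places. Dendritic-cell genes averaged 9.06 to 9.76 in T-BetKO Stat5ca transferred, 9.10 to 9.22 in Stat5ca transferred and 9.81 to 10.30 in control transferred cells, against 7.31 to 7.36 at 72 h and 7.87 to 9.44 in naive cells. Of 8 B-cell genes, Ms4a1, Cd79a and Pax5 lay under background in all 6 groups, while Cd79b averaged 9.78 to 10.90. Blnk averaged 8.89 in T-BetKO Stat5ca transferred, 7.62 in Stat5ca transferred and 9.40 in control transferred cells, and Cd22 averaged 8.91, 7.90 and 8.59 in these groups. The mean of the 8 genes was 7.55 to 7.95 in T-BetKO Stat5ca transferred, 7.41 to 7.43 in Stat5ca transferred and 7.79 to 7.81 in control transferred cells, against 7.14 to 7.35 at 72 h and 7.41 to 7.70 in naive cells. The 4 natural killer cell genes averaged 7.67 to 7.79 in T-BetKO Stat5ca transferred, 8.16 to 8.96 in Stat5ca transferred and 7.64 to 8.08 in control transferred cells, against 6.18 to 6.45 at 72 h and 6.82 to 8.24 in naive cells. Alas2, an erythroid gene, was 8.93 and 13.62 in the 2 control transferred arrays. The part of these cell types in the results was not tested.

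**Figure D3:**
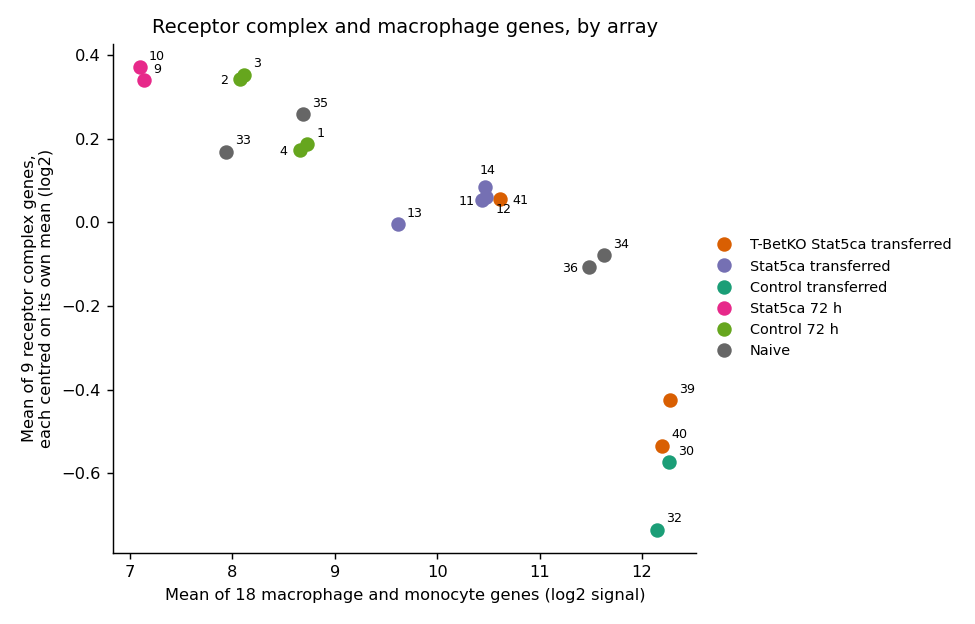
Mean of the 9 genes, each centred on its own mean over the 19 arrays (vertical axis, log2), against the mean of 18 macrophage and monocyte genes (horizontal axis, log2 signal), 1 point per array with its array number. Control transferred arrays 30 and 32 lie lowest at −0.57 and −0.73, and Stat5ca 72 h arrays lie highest at 0.34 and 0.37.

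The CD3 chains are encoded by neighbouring genes on mouse chromosome 9, with 0 annotated genes between Cd3d and Cd3g and 0 between Cd3d and Cd3e. The start sites of Cd3g, on the minus strand, and of Cd3d, on the plus strand, lie 1355 bases apart. The promoters of these 3 genes are shown because the genes fell and rose together after transfer while Cd3d alone moved with activation. They are RefSeq sequences of GRCm38.p6, 300 bases around each start site, at chr9:44981536-44981835 (plus strand) for Cd3d, chr9:44980382-44980681 (minus strand) for Cd3g and chr9:45009562-45009861 (minus strand) for Cd3e. Capitals mark matches on either strand to STAT5 (TTCNNNGAA), RUNX (TGNGGT), ETS (GGAAG) and TCF (CTTTGA) motifs.
Cd3d: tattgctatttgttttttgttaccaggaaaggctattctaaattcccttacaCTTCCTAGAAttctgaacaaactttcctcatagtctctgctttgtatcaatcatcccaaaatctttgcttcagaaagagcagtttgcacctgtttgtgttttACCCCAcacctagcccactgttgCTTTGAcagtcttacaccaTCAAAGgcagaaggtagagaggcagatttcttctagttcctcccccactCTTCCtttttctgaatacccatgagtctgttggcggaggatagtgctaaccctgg
Cd3g: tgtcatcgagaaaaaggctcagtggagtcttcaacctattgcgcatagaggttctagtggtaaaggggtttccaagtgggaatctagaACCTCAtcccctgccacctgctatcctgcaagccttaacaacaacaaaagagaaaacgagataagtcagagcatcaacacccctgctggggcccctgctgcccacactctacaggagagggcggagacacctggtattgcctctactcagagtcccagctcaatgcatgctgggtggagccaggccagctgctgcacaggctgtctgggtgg
Cd3e: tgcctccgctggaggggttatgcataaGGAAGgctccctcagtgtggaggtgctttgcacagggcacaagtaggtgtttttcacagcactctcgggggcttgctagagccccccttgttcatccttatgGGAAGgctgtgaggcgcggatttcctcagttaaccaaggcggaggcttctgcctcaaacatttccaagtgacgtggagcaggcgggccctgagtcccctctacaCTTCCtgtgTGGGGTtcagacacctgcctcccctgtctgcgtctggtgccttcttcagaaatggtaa

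The Cd3d window held 1 STAT5 match, which overlapped an ETS match, with 1 RUNX, 2 ETS and 2 TCF matches in all. The Cd3g window held 1 RUNX match and none of the other 3 motifs, and the Cd3e window held 1 RUNX and 3 ETS matches. Of 32851 promoter windows of the same length, 8.3% held a STAT5 match, 45.8% a RUNX match, 71.4% an ETS match and 16% a TCF match. A match describes the letters of this window only.

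Cd3d, the delta chain that pairs with epsilon in the complex, had the widest range of the 3. Its log2 signal was 10.40 and 10.22 in control transferred cells, against 11.74, 12.03, 12.08 and 11.70 in control 72 h cells and 11.35, 10.99, 11.44 and 10.82 in naive cells. It was lower on every control transferred array than on any array of the other TCRP1A groups. It fell by 1.58 ± 0.16 in control transferred against control 72 h cells (SE, adjusted p = 2.38e-06) and by 0.84 ± 0.16 against naive cells (adjusted p = 0.00345), the second of which no longer passed without array 32 (−0.75, adjusted p = 0.0598) or with the macrophage covariate (−0.53, adjusted p = 0.0718). In control 72 h against naive cells Cd3d rose by 0.74 ± 0.13 (adjusted p = 0.000365), or 1.67-fold, with no overlap of the arrays.

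Stat5ca transferred cells had Cd3d signals of 11.44, 11.45, 11.27 and 11.58. All 4 lay above both control transferred arrays. Cd3d rose by 1.13 ± 0.16 in Stat5ca transferred against control transferred cells (adjusted p = 0.000233), or 2.18-fold. Stat5ca 72 h cells had 12.03 and 12.02, within the range of control 72 h cells, a difference of 0.14 with a 95% interval of −0.20 to 0.48. Cd3d fell by 0.59 in Stat5ca transferred against Stat5ca 72 h cells (adjusted p = 0.0153). This did not pass with the macrophage covariate (−0.16, adjusted p = 0.636). Nor did it without array 9 (−0.58) or array 10 (−0.60), each of which leaves a single Stat5ca 72 h array.

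Cd3e, the epsilon chain, which occurs in both CD3 dimers, was flat with activation and low after transfer of control cells. Cd3e had log2 signals of 12.81 and 12.77 in control transferred cells, against 13.30, 13.45, 13.60 and 13.28 in control 72 h cells and 13.49, 13.23, 13.56 and 13.22 in naive cells. The control transferred arrays lay below all of these. Cd3e fell by 0.59 ± 0.11 in control transferred against naive cells (adjusted p = 0.00328), and the difference between control 72 h and naive cells was 0.03 with a 95% interval of −0.16 to 0.22. Stat5ca transferred cells had 13.45, 13.36, 13.44 and 13.48, all above control transferred cells and inside the naive range. Cd3e rose by 0.64 ± 0.11 in Stat5ca transferred against control transferred cells (adjusted p = 0.000849).

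Cd3g, the gamma chain, was lower after transfer than at 72 h in both kinds of TCRP1A cell. Its log2 signal was 13.16, 13.24, 13.21 and 13.23 in Stat5ca transferred cells, 12.72 and 12.38 in control transferred cells, 13.58 and 13.67 in Stat5ca 72 h cells, and 13.46, 13.59, 13.58 and 13.44 in control 72 h cells. Naive cells had 13.51, 13.35, 13.58 and 13.28. The transferred arrays of both kinds lay below every 72 h and naive array. Cd3g fell by 0.41 in Stat5ca transferred against Stat5ca 72 h cells (adjusted p = 0.00943), which did not pass without array 10 (−0.37, adjusted p = 0.116). With the macrophage covariate that change was −0.20 and did not pass (adjusted p = 0.391). In control transferred against control 72 h cells Cd3g fell by 0.97 ± 0.10 (adjusted p = 4.01e-06). It rose by 0.66 ± 0.10 in Stat5ca transferred against control transferred cells (adjusted p = 0.000439).

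Cd247, the zeta chain, lies on chromosome 1, apart from the CD3 cluster. Its log2 signal was 11.64, 11.71, 11.83 and 11.74 in Stat5ca transferred cells, 11.08 and 10.88 in control transferred cells, 12.03 and 12.08 in Stat5ca 72 h cells, and 11.45, 11.94, 11.90 and 11.39 in control 72 h cells. Naive cells had 11.95, 11.70, 11.88 and 11.62. The control transferred arrays were the lowest among TCRP1A cells and the Stat5ca 72 h arrays the highest. Cd247 rose by 0.75 ± 0.15 in Stat5ca transferred against control transferred cells (adjusted p = 0.002). In Stat5ca 72 h against control 72 h cells the difference was 0.38 ± 0.15 (adjusted p = 0.153), which passed with array weights (0.53, adjusted p = 0.00331). Control 72 h arrays 1 and 4, with the lower Cd247, had the higher macrophage means of that group, 8.73 and 8.66 against 8.07 and 8.11 on arrays 2 and 3, and the part of this in the result was not tested.

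In T-BetKO Stat5ca transferred cells the zeta chain had the largest fall of the 9 genes. Cd247 had log2 signals of 10.58, 10.46 and 11.15 in T-BetKO Stat5ca transferred cells, and every one lay below all 4 Stat5ca transferred arrays. Cd247 fell by 0.9995 ± 0.16 (adjusted p = 0.000582), a 2.00-fold lower signal. Cd3d had 10.63, 10.48 and 10.89 in T-BetKO Stat5ca transferred cells and fell by 0.77 ± 0.14 (adjusted p = 0.00193). Cd3e had 12.76, 12.71 and 13.31 and fell by 0.51 ± 0.13 (adjusted p = 0.0106), a call lost without array 39 (−0.42, adjusted p = 0.0627), without array 40 (−0.40, adjusted p = 0.084) and with the macrophage covariate (−0.32, adjusted p = 0.0559). Cd3g had 12.90, 12.78 and 13.29, overlapping Stat5ca transferred cells, and its difference was −0.22 with a 95% interval of −0.46 to 0.02.

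Array 41, the day 54 sample, was nearer to the mean of Stat5ca transferred cells than arrays 39 and 40 for Cd247 and the CD3 chains, farther from it for Cd5 and Cd6, and had less macrophage signal. With array 41 as the only T-BetKO array, Cd247 differed by −0.58 (adjusted p = 0.108) and Cd3d by −0.54 (adjusted p = 0.165), and of the 9 genes Cd5 alone was called, with the spread of that single array taken from the other groups. The RNA integrity numbers of arrays 39, 40 and 41 were 7, 6 and 8, against 8 to 9 in Stat5ca transferred cells. With the integrity number as a covariate 3 of the 9 genes passed, 1 higher and 2 lower.

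An equal shift of both genes leaves the within-array difference of Cd247 from Cd3e as it was. Cd247 minus Cd3e was −2.18, −2.25 and −2.16 in T-BetKO Stat5ca transferred cells, against −1.81, −1.65, −1.61 and −1.74 in Stat5ca transferred cells. The 3 T-BetKO arrays lay below all 4 others, array 41 included. The difference between the means was −0.49, with a two-sided exact permutation p of 0.0286, the smallest that 3 against 4 arrays allow, and 0.0857 after adjustment over 6 such tests. The same quantity differed by −0.15 in control 72 h against naive cells (exact p = 0.2286) and by −0.11 in Stat5ca transferred against naive cells (exact p = 0.1143), with overlapping arrays.

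**Figure D4:**
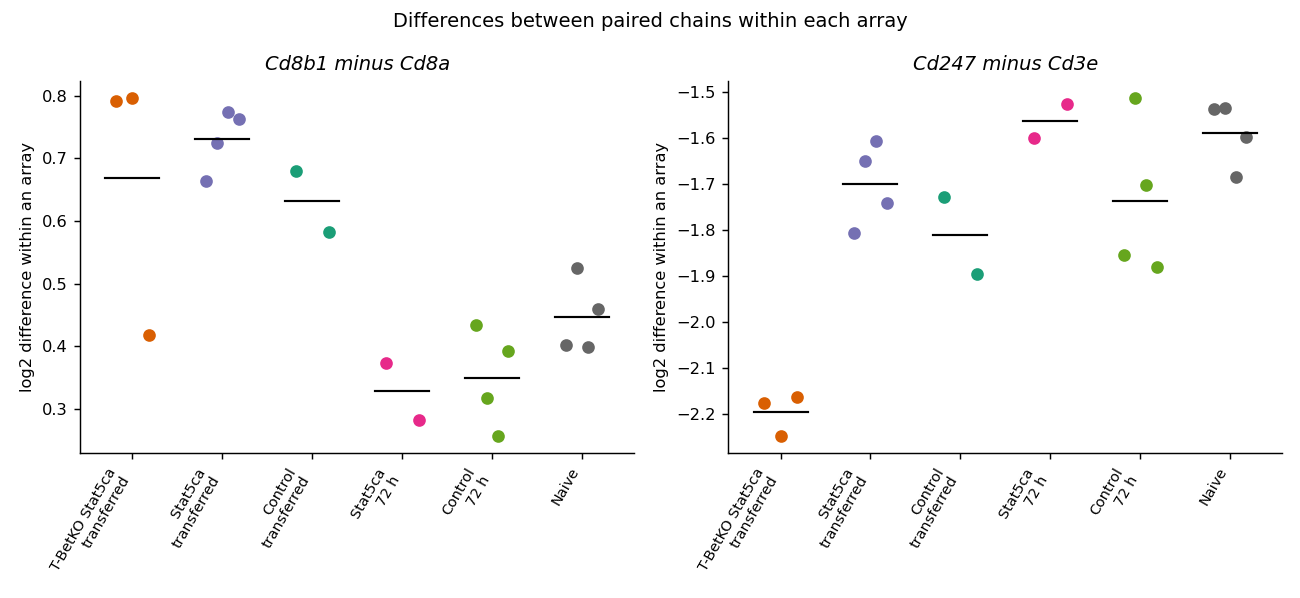
Within-array log2 difference of Cd8b1 minus Cd8a (left) and of Cd247 minus Cd3e (right), 1 point per array and a line at each group mean. On the left the 4 Stat5ca transferred arrays lie at 0.66 to 0.77, above all 4 naive arrays at 0.40 to 0.53, and on the right the 3 T-BetKO Stat5ca transferred arrays lie at −2.25 to −2.16, below all others.

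The CD8 chains are encoded by neighbours on chromosome 6, with 0 annotated genes between them. Cd8a encodes the alpha chain, which also forms a dimer with itself, and Cd8b1 the beta chain, which needs alpha to reach the surface. Cd8a had log2 signals of 12.83, 12.85, 12.85 and 12.81 in Stat5ca transferred cells, 12.68 and 12.46 in control transferred cells, 13.21 and 13.26 in Stat5ca 72 h cells, and 12.96, 13.18, 13.19 and 12.997 in control 72 h cells. Naive cells had 13.27, 12.97, 13.24 and 12.97. All transferred TCRP1A arrays lay below all 72 h and naive arrays.

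Cd8a fell by 0.28 ± 0.09 in Stat5ca transferred against naive cells (adjusted p = 0.0243) and by 0.40 in Stat5ca transferred against Stat5ca 72 h cells (adjusted p = 0.0127). The first no longer passed without array 14, 33 or 35 (adjusted p of 0.0602, 0.0736 and 0.0594), and the second no longer passed without array 9 (−0.43, adjusted p = 0.065) or array 10 (−0.38, adjusted p = 0.116). With the macrophage covariate the change against Stat5ca 72 h cells was −0.12 and did not pass (adjusted p = 0.606). Between Stat5ca transferred and control transferred cells Cd8a differed by 0.26 ± 0.11 (adjusted p = 0.0851), with a 95% interval of 0.04 to 0.49. In control transferred against control 72 h cells it fell by 0.51 ± 0.11 (adjusted p = 0.00124).

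Cd8b1 had a narrower range. Signals were 13.49, 13.57, 13.62 and 13.58 in Stat5ca transferred cells, 13.36 and 13.05 in control transferred cells, 13.58 and 13.54 in Stat5ca 72 h cells, and 13.39, 13.49, 13.45 and 13.39 in control 72 h cells. Naive cells had 13.67, 13.50, 13.64 and 13.43. Stat5ca transferred cells lay inside the naive range, with a difference of 0.01 and a 95% interval of −0.16 to 0.17. In control transferred against naive cells Cd8b1 fell by 0.36 ± 0.09 (adjusted p = 0.0192). The 2 control transferred arrays were far apart, and without array 32 the difference was −0.20 (adjusted p = 0.304). Cd8b1 rose by 0.36 ± 0.09 in Stat5ca transferred against control transferred cells (adjusted p = 0.0109), and by 0.20 without array 32, where it did not pass (adjusted p = 0.252).

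Within an array, Cd8b1 minus Cd8a was 0.66, 0.73, 0.77 and 0.76 in Stat5ca transferred cells, against 0.40, 0.53, 0.40 and 0.46 in naive cells. The arrays did not overlap, and the means of 0.73 ± 0.05 and 0.45 ± 0.06 (SD, n = 4 each) differed by 0.29. The two-sided exact permutation p was 0.0286, the smallest that 4 against 4 arrays allow, and 0.0857 after adjustment over the 6 tests. T-BetKO Stat5ca transferred arrays 39, 40 and 41 had 0.79, 0.80 and 0.42. The arrays with more macrophage signal had the larger values in the T-BetKO, naive (arrays 34 and 36) and control 72 h groups (arrays 1 and 4). So did Stat5ca 72 h array 9 and control transferred array 30. Stat5ca transferred cells ran the other way, with the largest value, 0.77, on array 13, which had the least macrophage signal. The part of macrophage signal in the result was not tested. Control transferred cells had 0.68 and 0.58, Stat5ca 72 h cells 0.37 and 0.28, and control 72 h cells 0.43, 0.32, 0.26 and 0.39. The difference between control 72 h and naive cells was −0.10 (exact p = 0.1143).

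In T-BetKO Stat5ca transferred cells both chains were lower on arrays 39 and 40. Cd8b1 had 12.96, 12.81 and 13.33 there and fell by 0.54 ± 0.11 against Stat5ca transferred cells (adjusted p = 0.00255), with no overlap. With the integrity number as a covariate it did not pass (−0.40, adjusted p = 0.0877). Cd8a had 12.16, 12.01 and 12.91, and array 41 lay above all 4 Stat5ca transferred arrays. Its fall of 0.47 ± 0.15 (adjusted p = 0.0386) no longer passed without array 39 (−0.38, adjusted p = 0.163), array 40 (−0.30, adjusted p = 0.247) or any of arrays 11 to 14 (adjusted p of 0.0673 to 0.0758).

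CD5 and CD6 are related surface proteins encoded on chromosome 19 with 1 annotated gene between them. CD5 restrains receptor signalling in T cells, and its level is known to follow the strength of that signal. The Cd5 promoter is shown beside those of the CD3 genes because Cd5 was the only member that rose in T-BetKO Stat5ca transferred cells. It lies at chr19:10738925-10739224 (minus strand, RefSeq, GRCm38.p6), with the same motifs in capitals, and held 1 RUNX and 3 ETS matches and no STAT5 or TCF match.
Cd5: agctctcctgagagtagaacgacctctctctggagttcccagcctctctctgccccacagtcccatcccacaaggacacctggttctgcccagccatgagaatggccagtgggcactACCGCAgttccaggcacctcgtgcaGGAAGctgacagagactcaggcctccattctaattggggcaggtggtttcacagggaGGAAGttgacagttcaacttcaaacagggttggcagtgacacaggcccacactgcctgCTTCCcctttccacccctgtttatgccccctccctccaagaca

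Cd5 had log2 signals of 11.77, 11.70, 11.69 and 11.78 in control 72 h cells, against 11.23, 11.11, 11.52 and 11.12 in naive cells. All 4 control 72 h arrays lay above all 4 naive arrays, and Cd5 rose by 0.49 ± 0.09 (adjusted p = 0.000349). It had 10.46 and 10.33 in control transferred cells, the lowest of any group. Cd5 fell by 1.34 ± 0.11 in control transferred against control 72 h cells (adjusted p = 2.36e-07), or 2.53-fold, and by 0.85 ± 0.11 against naive cells (adjusted p = 0.000254). These 2 falls passed with the macrophage covariate as well, at −1.16 (adjusted p = 0.000144) and −0.74 (adjusted p = 0.00434).

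Stat5ca transferred cells had Cd5 signals of 11.03, 11.01, 10.84 and 10.998. All 4 were above control transferred cells and below all naive arrays. Cd5 rose by 0.57 ± 0.11 in Stat5ca transferred against control transferred cells (adjusted p = 0.00128). It fell by 0.28 ± 0.09 in Stat5ca transferred against naive cells (adjusted p = 0.0259), which no longer passed without array 13 (−0.23, adjusted p = 0.0794) or 35 (−0.18, adjusted p = 0.0555). Against Stat5ca 72 h cells, with 11.48 and 11.42, it fell by 0.48 (adjusted p = 0.004). This did not pass with the macrophage covariate (−0.33, adjusted p = 0.164). Nor did it without array 9 (−0.45), which leaves a single Stat5ca 72 h array.

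In T-BetKO Stat5ca transferred cells Cd5 had 11.49, 11.41 and 11.77. All 3 arrays lay above all 4 Stat5ca transferred arrays, and Cd5 rose by 0.59 ± 0.10 (adjusted p = 0.00104), or 1.51-fold. The rise was 0.69 with the macrophage covariate (adjusted p = 0.000626). Of the other 8 members, 5 fell and 3 were not called, with differences of 0.04 for Cd6, −0.22 for Cd3g and −0.28 for Zap70.

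CD6 binds the adhesion molecule ALCAM, and its gene rose with activation and fell after transfer of control cells. The log2 signals of Cd6 were 10.999, 10.78, 10.63 and 10.96 in control 72 h cells, against 10.29, 10.15, 10.65 and 10.21 in naive cells. Array 3 and naive array 35 overlapped, and Cd6 rose by 0.52 ± 0.12 (adjusted p = 0.00299). It had 9.42 and 9.34 in control transferred cells, far below every other array. Cd6 fell by 1.46 ± 0.15 in control transferred against control 72 h cells (adjusted p = 2.4e-06), or 2.75-fold, and by 0.94 ± 0.15 against naive cells (adjusted p = 0.00115).

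Stat5ca transferred cells had Cd6 signals of 10.58, 10.62, 10.21 and 10.56, within the naive range. Cd6 rose by 1.11 ± 0.15 in Stat5ca transferred against control transferred cells (adjusted p = 0.000158), or 2.16-fold, and by 1.04 with the macrophage covariate (adjusted p = 0.000828). T-BetKO Stat5ca transferred cells had 10.30, 10.20 and 11.10, on both sides of Stat5ca transferred cells. The difference was 0.04 with a 95% interval of −0.34 to 0.42.

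Zap70, the kinase that docks on the phosphorylated CD3 and zeta tails, lies on chromosome 1. Its log2 signal was 11.33, 11.22, 11.18 and 11.28 in Stat5ca transferred cells, 10.39 and 10.43 in control transferred cells, 11.53 and 11.59 in Stat5ca 72 h cells, and 11.09, 11.42, 11.54 and 11.11 in control 72 h cells. Naive cells had 11.24, 10.78, 11.30 and 10.84. The control transferred arrays lay below all others. Zap70 rose by 0.84 ± 0.15 in Stat5ca transferred against control transferred cells (adjusted p = 0.0011), or 1.79-fold, and fell by 0.88 ± 0.15 in control transferred against control 72 h cells (adjusted p = 0.000263).

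In control transferred against naive cells Zap70 fell by 0.63 ± 0.15 (adjusted p = 0.0118), which did not pass without array 30 (−0.61, adjusted p = 0.0792) or 32 (−0.65, adjusted p = 0.0845). T-BetKO Stat5ca transferred cells had 10.88, 10.80 and 11.24, overlapping Stat5ca transferred cells. That difference was −0.28 with a 95% interval of −0.57 to 0.02.

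The groups were ranked by each gene's own means, which sets side by side the groups that lie closest. Few calls between neighbours follow in part from that ranking and are not read as likeness of the groups. The share over all genes was not counted for these steps. Stat5ca 72 h cells had the highest mean of Cd3d, Cd3e, Cd3g, Cd247, Cd8a and Zap70, Stat5ca transferred cells that of Cd8b1, and control 72 h cells that of Cd5 and Cd6, and in none of the 9 genes was the highest mean called against the next. T-BetKO Stat5ca transferred and control transferred cells had the 2 lowest means for every gene except Cd5 and Cd6. Between these 2 groups the adjusted p was 0.076 for Zap70, 0.0874 for Cd3g and 0.302 to 0.716 for the other 5 genes. For Cd5, naive cells lay above Stat5ca transferred cells, which lay above control transferred cells, and both steps were called.

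The effect of Stat5ca after transfer was set against its effect at 72 h in a test of the difference itself. Of the 9 genes, 4 had a more positive Stat5ca effect after transfer, 0 a less positive one and 5 were not called, with a median difference of 0.55 against 0.01 over all genes. In this test 17.8% of all genes were called and 12.3% were more positive, and 5.62% were called with a difference of at least 2-fold, as was Cd6. The difference was 1.40 ± 0.21 for Cd6 (adjusted p = 0.000526), 0.86 ± 0.15 for Cd5 (adjusted p = 0.00137), 0.99 ± 0.23 for Cd3d (adjusted p = 0.00736) and 0.55 ± 0.15 for Cd3g (adjusted p = 0.0171). For Cd5 the effect was −0.28 ± 0.11 at 72 h (adjusted p = 0.141) and 0.57 after transfer. The Cd3g difference no longer passed without array 32 (0.39, adjusted p = 0.126) or array 9 (0.51, adjusted p = 0.0781). For Cd8a the difference was 0.11, with a 95% interval of −0.21 to 0.42.

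Of the 43 other pathway genes, 15 rose and 14 fell with activation in control 72 h against naive cells, where 22% of all genes rose and 24.9% fell. The rises included Sh2d1a, the adaptor SAP, by 1.92, and the co-stimulatory receptors Icos by 1.72 and Cd28 by 1.65. The falls included Pag1, an adaptor that recruits the inhibitory kinase Csk, by 1.88, and the kinase gene Txk by 1.11. Of 13 genes that restrain receptor signalling, 8 rose and 3 fell, and Cblb, a ubiquitin ligase, rose by 1.10 ± 0.08 (adjusted p = 8.19e-08).

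In control transferred against naive cells 3 pathway genes rose and 14 fell, with a median of −0.20, while 7.94% of all genes rose and 9.81% fell. Of 11 adaptor genes 6 fell and 0 rose, among them Sit1 by 1.22 and Lat, the scaffold that ZAP-70 phosphorylates, by 0.99 ± 0.13 (adjusted p = 0.000306). Cd28 averaged 11.96 in control transferred cells against 10.63 in naive cells and rose by 1.33. Cd4, a marker of another T-cell class, averaged 9.51 in control transferred cells against 8.31 in naive cells and rose by 1.195, and the part of other cells in this was not tested. Trat1, a transmembrane adaptor of the receptor, averaged 5.42 in control transferred and 5.36 in Stat5ca transferred cells, under background, against 8.97 in naive cells. In control transferred against control 72 h cells 7 pathway genes rose and 22 fell, with a median of −0.32, while 13.1% of all genes rose and 24.4% fell.

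In Stat5ca transferred against control transferred cells 21 pathway genes rose and 5 fell, with a median of 0.35, while 16.9% of all genes rose and 8.46% fell. Adaptors made up 7 of the rises, among them Sh2d1a by 1.65, Sit1 by 1.18, Sh2d2a by 1.03 and Lat by 0.87 ± 0.13 (adjusted p = 0.000299). Of 7 effector genes 4 rose and 0 fell, and Plcg1, the phospholipase recruited to LAT, rose by 0.71 ± 0.13 (adjusted p = 0.00104). The falls included Cd4 by 1.23, the adaptor Fyb by 0.53 and the phosphatase gene Ptpn6 by 0.35. Of 5 kinase genes 3 rose, and Fyn rose by 0.57 ± 0.11 (adjusted p = 0.00202). At 72 h 2 pathway genes rose and 1 fell in Stat5ca against control cells, where 2.37% of all genes rose and 3.35% fell. Txk rose by 0.61 and Ptpn6 fell by 0.49. Cd4, the other rise, averaged 8.28 in Stat5ca 72 h cells against 7.26 in control 72 h cells, where it lay under background.

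In Stat5ca transferred against naive cells 11 pathway genes rose and 11 fell, while 15.8% of all genes rose and 12.7% fell. Cd28 rose by 1.85, Sh2d1a by 1.09 and Ptpn2, a phosphatase gene, by 0.93. Trat1 fell by 3.62, to an average of 5.36, under background. Dgka, encoding a kinase that removes the messenger diacylglycerol, fell by 0.55. Against Stat5ca 72 h cells 7 rose and 13 fell, with 8.61% and 12.7% of all genes. Trat1 fell by 3.70, Sla2 by 1.45 and Icos by 1.41. The Stat5ca effect was more positive after transfer than at 72 h for 10 pathway genes and less positive for 3, while 12.3% of all genes were more and 5.48% less positive. The difference was 1.89 for Sh2d1a (adjusted p = 0.000149) and 0.70 for Lat (adjusted p = 0.0143).

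In T-BetKO Stat5ca transferred against Stat5ca transferred cells 3 pathway genes rose and 18 fell, with a median of −0.29, while 7.03% of all genes rose and 13.8% fell. Icos rose by 1.82, averaging 12.15 against 10.33. Trat1 averaged 7.62 against 5.36, where the second lay under background. Sh2d1a fell by 1.65, Cd27, a co-stimulatory receptor, by 1.22, and Ubash3a, which restrains receptor signalling, by 0.94. Of the kinase genes 3 of 5 fell, among them Fyn by 0.45 ± 0.11 (adjusted p = 0.0102) and Prkcq by 0.59 ± 0.16 (adjusted p = 0.0152).

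Patterns over the 19 arrays are given as Pearson correlations for description, since all genes share the arrays, their normalization and their macrophage signal. Among members, Cd247 was most like Cd8b1 (r = 0.94) and Cd3e (r = 0.93). Cd5 was least like Cd8b1 (r = 0.04) and Cd247 (r = 0.16), and most like Cd6 (r = 0.86). Outside the list, the mean of the 9 members was most like Def6 and Slain1 (r = 0.97 each), then Fcho1, Plcg1, Acap1 and Rab3ip (r = 0.96 each). Cd8a was most like Themis, Cluap1 and Ssbp2, with Themis at r = 0.97. Cd8b1 was most like Zfp287 (r = 0.96), Clec2i and Dclre1b. Cd247 was most like Septin6 (r = 0.96), Clec2i and Fam53a. Cd5 was most like Aebp2 (r = 0.88), Gtf3c1 and Kdm4a.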

How the data were processed

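The deposited values were log2 signals per probe set, 35557 on each of 19 arrays, and were used as the authors deposited them. Affymetrix Expression Console is the tool listed per the submitters' processing notes. Its settings and its normalization were not given in the sources used here. The log2 scale was read from the range of 3.13 to 14.94. Array medians lay between 7.69 and 7.89, no 2 arrays were identical, and the number of arrays limits the precision. Genes were named through the platform's annotation, where 21789 probe sets carried 1 gene, 1621 several and 12147 none; the brightest probe set stood for each of 19938 genes. Groups came from the labels.

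The fit over all genes used lmFit and eBayes of limma 3.58.1 (R 4.3.3), with the 16 TCRP1A arrays in 1 fit for 8 comparisons and all 19 arrays for the T-BetKO comparison. Changes are tested minus compared group, ± SE, with Benjamini-Hochberg adjusted p. Within-array differences of gene pairs were tested by exact permutation, two-sided, over 6 tests. The script was tested on simulated data with known changes. Python 3.11.15, pandas 2.3.3, numpy 2.4.6, scipy 1.17.1 and matplotlib 3.10.9 were used. RefSeq promoters of GRCm38.p6 were matched by symbol, for 8 of the 10 genes.

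The members, the lists of pathway and marker genes, the tests and the alternatives were chosen with earlier results of these data known. All members are named. The pathway genes named in each comparison came from the 3 largest rises and 3 largest falls called without overlap of the arrays. Not all of these are named. Cblb, Lat, Plcg1, Fyn, Prkcq and the tested differences of Sh2d1a and Lat were named after their values were seen. Alternatives were centring on array medians, quantile normalization, array weights, averaged probe sets, a filter on dim genes, another model of the spread, other arrays in the fit, the integrity number or the macrophage mean as a covariate, a 2-fold minimum, and leaving out arrays; the Xist level as a covariate was chosen after seeing the data.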

Additional observations from a re-analysis of the deposited data

Results flagged for a closer look

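In Stat5ca transferred cells, array 13 lay apart from arrays 11, 12 and 14 for Cd5 (10.84 against 10.998 to 11.03) and for Cd6 (10.21 against 10.56 to 10.62). Its gap to the nearest of the others was 0.85 of the group's range for Cd5 (ratio 0.8453) and 0.86 for Cd6 (ratio 0.8612), above the 95% critical value of Dixon's test for 4 samples. These were 2 of 27 gene and group pairs examined, and chance gives about 1 in 20. The same array had the lowest macrophage mean of its group (9.61 against 10.44 to 10.48).

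The Stat5ca effect differed between transferred and 72 h cells, by the test of the difference itself, for Cd6 (1.40), Cd3d (0.99), Cd5 (0.86) and Cd3g (0.55). The control transferred arrays had macrophage means of 12.14 and 12.26, above those of every other TCRP1A group. With the macrophage mean as a covariate all 4 differences were called, and so was that of Zap70 (0.48, adjusted p = 0.0389).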

How the results depend on the processing

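No paired analysis was possible because the groups compared share no replicate numbers. Of 9 counts of called members, a 2-fold minimum left 0 for control 72 h minus naive, control transferred minus naive, Stat5ca transferred minus Stat5ca 72 h, Stat5ca transferred minus naive and T-BetKO Stat5ca transferred minus Stat5ca transferred, 3 for control transferred minus control 72 h, 2 for Stat5ca transferred minus control transferred and 1 for the difference between the Stat5ca effects. Array weights gave 5 for Stat5ca 72 h minus control 72 h and 7 for Stat5ca transferred minus Stat5ca 72 h. With only the groups compared in the fit, 4 were called for control transferred minus naive and 1 for Stat5ca transferred minus naive, and 1 for the second also with all 19 arrays in the fit or arrays centred on their medians. The macrophage covariate gave 3 for control transferred minus naive, 4 for control transferred minus control 72 h, 0 for Stat5ca transferred minus Stat5ca 72 h and 4 for Stat5ca transferred minus naive. In the T-BetKO comparison 3 were called with the integrity number as a covariate and 1 without arrays 39 and 40. Apart from the 2-fold minimum, the share of all genes called was not counted for these alternatives. The causes were not tested.

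Leaving out each array in turn gave 3 to 4 called members for control 72 h minus naive, 0 for Stat5ca 72 h minus control 72 h, 4 to 9 for control transferred minus naive, 8 to 9 for control transferred minus control 72 h, 7 to 8 for Stat5ca transferred minus control transferred, 1 to 4 for Stat5ca transferred minus Stat5ca 72 h, 1 to 3 for Stat5ca transferred minus naive, 3 to 4 for the difference between the Stat5ca effects and 4 to 7 for the T-BetKO comparison. The count of 4 came without array 32, and the count of 1 for Stat5ca transferred minus Stat5ca 72 h without array 9 or 10. For pairs, Cd8b1 minus Cd8a ranged over 0.27 to 0.31 in Stat5ca transferred minus naive and −0.13 to 0.062 in the T-BetKO comparison, and Cd247 minus Cd3e over −0.53 to −0.46 in the T-BetKO comparison.

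Signs turned for differences that were not called, except Cd8a in the T-BetKO comparison. For control 72 h minus naive, Cd3e was −0.030 with quantile normalization, −0.11 with the macrophage covariate and −0.12 with naive arrays 34 and 36 left out, and Cd3g −0.016 and −0.029 in the last 2 of these. Cd8a was 0.0040 with centring, 0.044 with the Xist covariate and 0.11 with naive arrays 33 and 35 left out, and Cd247 0.020 and 0.0094 in the last 2 of these. Leaving out single arrays gave −0.034 to 0.092 for Cd3e and −0.081 to 0.017 for Cd8a. For Stat5ca 72 h minus control 72 h, Cd3d was −0.036 with the macrophage covariate. For Stat5ca transferred minus Stat5ca 72 h, Cd8b1 was −0.021 with quantile normalization, −0.0047 with centring and −0.034 with the Xist covariate, and Cd3e 0.10, Cd6 0.044 and Zap70 0.13 with the macrophage covariate, with leave-one-out ranges of −0.017 to 0.028 for Cd8b1 and −0.14 to 0.032 for Cd6. For Stat5ca transferred minus naive, Cd3e was −0.012 and Cd8b1 −0.0565 with quantile normalization, Cd247 was 0.012 with array weights and 0.068 with naive arrays 33 and 35 left out. Without arrays 34 and 36 Cd3e was −0.10, Cd8b1 −0.089 and Zap70 −0.018. Cd8b1 had a leave-one-out range of −0.037 to 0.042 there. The difference between the Stat5ca effects ranged over −0.0030 to 0.22 for Cd8a. In the T-BetKO comparison Cd6 was −0.20 with array weights, −0.013 with the Xist covariate and −0.24 to 0.21 leaving out single arrays. Without arrays 39 and 40 Cd3g was 0.0825 and Cd8a 0.072, with Cd8a at −0.75 to −0.30 leaving out single arrays.

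Each member had exactly 1 probe set and lay above background, so averaging probe sets and leaving out dim genes could not alter its signals. These settings reached the members only through the other genes in the fit. With them all 81 member changes kept their direction and side of the threshold. With the macrophage covariate 54 of 81 did, 17 no longer passed, 4 newly passed and 6 turned sign. Every member signal lay above background, so no member change is a bound set by the low end of the scale. The high end was not tested. A group of 2 arrays that loses 1 is assumed to vary like the others.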
